A study of Mus musculus with 12 samples.

Results

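The 9 genes described here encode the core enzymes of glycogen synthesis and breakdown and the proteins that bring a phosphatase to the glycogen particle. They were chosen by symbol (Ugp2, Gys1, Gys2, Gbe1, Ppp1r3b, Ppp1r3c, Pygl, Pygb and Pygm) from a table of 23420 genes, with earlier results of these data known. All 9 were among the 15306 genes that passed a filter on low counts. RNA sequencing covered inguinal white adipose tissue (iWAT), a subcutaneous depot that forms beige adipocytes upon cold, of 12 male C57BL/6 mice aged 10 weeks (4 groups of 3). Both genotypes were HIF2α loxP/loxP, so that the controls (WT) were floxed as well, and only HIF2α AKO mice had Adipoq-Cre, a transgene driven by an adipocyte promoter, so that effects of Cre and of the deletion cannot be told apart. Mice of either genotype were kept at thermoneutrality (TN, 30 °C) for 1 week or in cold (4 to 6 °C) for 3 days, which allows the response of these genes to cold and its dependence on adipocyte HIF2α to be examined.

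Glycogen is a branched store of glucose. UDP-glucose pyrophosphorylase makes the activated sugar, glycogen synthase adds it to a growing chain, and the branching enzyme moves short stretches to new branch points, while glycogen phosphorylase releases glucose 1-phosphate from the chain ends. Synthase is active when dephosphorylated and phosphorylase when phosphorylated, and the glycogen-targeting subunits of protein phosphatase 1 favour storage by bringing that phosphatase to both enzymes. Isozymes of synthase and phosphorylase are known by the tissue in which each prevails, and adipocytes hold a small glycogen pool that responds to feeding and to adrenergic stimulation.

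The genes lie apart from each other in the mouse genome (GRCm38, gene ends from GENCODE M21). The genes of synthesis were Ugp2 on chromosome 11 (21321138 to 21371201), Gys1 on chromosome 7 (45434844 to 45456619), Gys2 on chromosome 6 (142422613 to 142473109) and Gbe1 on chromosome 16 (70313949 to 70569716). Both targeting subunits, Ppp1r3b on chromosome 8 (35375739 to 35388139) and Ppp1r3c on chromosome 19 (36731731 to 36736653), are short genes. The phosphorylases were Pygl on chromosome 12 (70190811 to 70231488), Pygb on chromosome 2 (150786735 to 150831758) and Pygm on chromosome 19 (6384399 to 6398459). Gys1 and Pygl overlap opposite-strand genes of the table, Ruvbl2 over 3253 bases and F730035M05Rik over 3648 bases. The strand setting of the counting is not given in the sources used here, so reads of those stretches cannot be assigned with certainty.

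Since most of these genes moved together, the stretches just upstream of their transcription start sites were read from RefSeq promoters of GRCm38.p6, which held 7 of the 9 genes and lacked Gys2 and Ppp1r3b. Within 250 bases upstream, both strands were searched for ACGTG and GCGTG (the core recognised by HIF dimers), TGACG (the core of the cAMP response element), AGGTCA (a nuclear receptor motif) and CACGTG (an E-box, which contains ACGTG on each strand). ACGTG or GCGTG occurred in 5 of the 7 genes (Ugp2, Ppp1r3c, Pygl, Pygb and Pygm), or 5 of their 8 promoters since Ugp2 has a second one with no match, against 38.6% of 32851 promoters of the same length. ACGTG alone occurred in 16.6% of all promoters, GCGTG in 28.2%, TGACG in 17.8%, AGGTCA in 14% and CACGTG in 6.02%. None of these letters were found in the windows of Gys1 and Gbe1. Below, Gys1 is shown as a gene that rose upon cold without such letters, Pygl as the phosphorylase gene with the most kinds of motif, Ppp1r3c as the gene with the largest fitted difference between genotypes at TN other than Pygm, and Ugp2 as the gene with the most matches, each 5′ to 3′ in the direction of the gene with matched letters in capitals.
Gys1 (chr7:45434589-45434838, plus strand): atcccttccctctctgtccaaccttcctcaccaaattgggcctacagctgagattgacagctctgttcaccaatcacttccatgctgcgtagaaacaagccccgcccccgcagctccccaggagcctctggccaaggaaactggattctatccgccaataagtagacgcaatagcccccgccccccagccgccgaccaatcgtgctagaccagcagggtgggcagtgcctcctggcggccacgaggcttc
Pygl (chr12:70227684-70227933, minus strand): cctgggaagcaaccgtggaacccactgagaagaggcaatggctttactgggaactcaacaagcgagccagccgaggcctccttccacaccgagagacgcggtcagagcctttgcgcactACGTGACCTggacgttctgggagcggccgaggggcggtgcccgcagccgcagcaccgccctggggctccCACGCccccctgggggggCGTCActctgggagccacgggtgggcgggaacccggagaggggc
Ppp1r3c (chr19:36736654-36736854, minus strand): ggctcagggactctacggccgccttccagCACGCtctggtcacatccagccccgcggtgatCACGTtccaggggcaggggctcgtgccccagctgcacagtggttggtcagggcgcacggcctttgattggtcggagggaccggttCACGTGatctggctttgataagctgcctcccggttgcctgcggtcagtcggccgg
Ugp2 (chr11:21371268-21371517, minus strand): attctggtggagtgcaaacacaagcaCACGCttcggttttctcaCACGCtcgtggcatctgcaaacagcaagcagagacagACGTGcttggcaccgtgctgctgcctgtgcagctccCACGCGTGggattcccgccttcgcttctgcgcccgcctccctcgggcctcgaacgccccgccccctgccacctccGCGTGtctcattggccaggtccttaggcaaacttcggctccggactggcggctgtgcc
The Pygl start used by RefSeq lies inside the gene as GENCODE M21 draws it, whose 5′ end lies further upstream. The Pygl window therefore lies within that gene, and its overlap with exons was not examined. In Pygl, an ACGTG ran from base -131 to base -127 relative to the start and overlapped an AGGTCA on the other strand. Ppp1r3c held the only CACGTG of the 8 windows, from base -104 to base -99, and the sequence is printed only down to base -50, next to an annotated exon. A match of so few letters is a description of the sequence and shows no binding.

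Libraries held 22368316 to 35204631 counts on genes, and values are given as CPM after TMM scaling. The targeted gene does not verify the genotype labels. Epas1, which encodes HIF2α, stood at 372.6, 277.9 and 430 CPM in TN WT and at 288.8, 394.2 and 360.1 CPM in TN libraries labelled HIF2α AKO. In cold it stood at 575.9, 562 and 742.8 CPM in WT and at 985.7, 743.2 and 748.5 CPM in those labelled HIF2α AKO. The log2 difference of libraries labelled HIF2α AKO from WT was -0.05 (SE 0.20) at TN and 0.40 (SE 0.20) in cold. Because counts span the whole gene, they do not show whether the floxed part was lost. Genotypes are therefore given as labelled. A pair of libraries, TN HIF2α AKO replicate 2 and cold HIF2α AKO replicate 1, held skeletal muscle transcripts, with 1983 and 1723 CPM summed over 12 of 12 muscle markers against 14.5 to 116 CPM in the other 10 libraries, and results that rest on them are given with and without them.

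**Figure D1:**
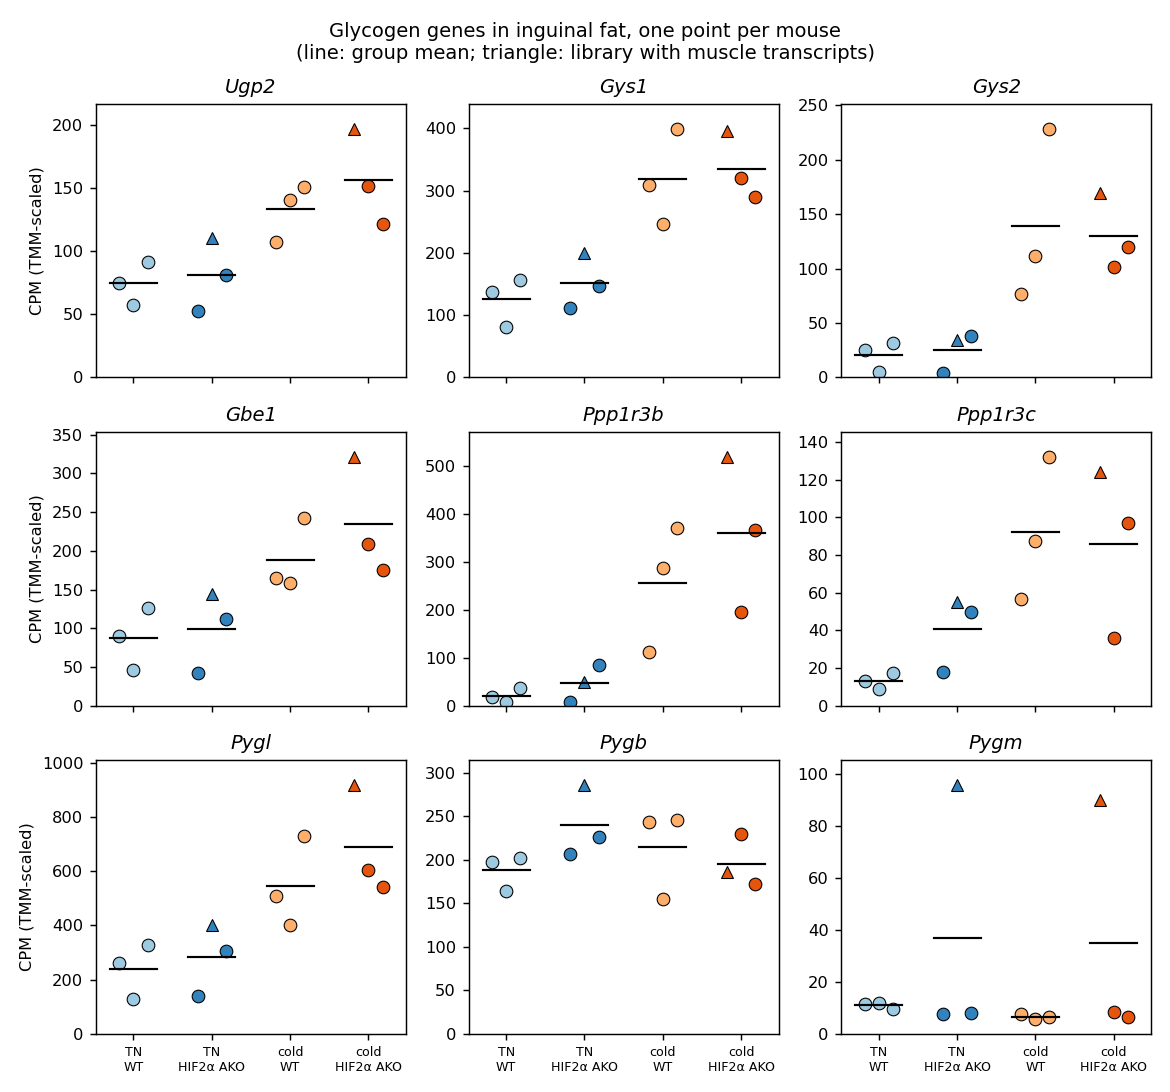
CPM (TMM-scaled, linear axis from 0) of the 9 genes in each of the 12 libraries, with 3 mice per group, the group mean as a line and the 2 libraries with muscle transcripts as triangles. The cold libraries lie above the TN libraries for Gys1, Gys2, Gbe1 and Ppp1r3b, Pygb lies between 155 and 286 CPM throughout, and Pygm exceeds 12 CPM only in the 2 triangles.

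Per length of transcript, the order of the genes differed between TN and cold. In TN WT mice, expression in CPM per kb of exon was 39.1 ± 4.29 for Pygb, 34.8 ± 14.8 for Pygl, 26.1 ± 8.27 for Gys1, 24.3 ± 5.54 for Ugp2 and 16.3 ± 7.56 for Gbe1 (SD, n = 3). Gys2 (7.71 ± 5.18), Ppp1r3c (4.79 ± 1.61), Pygm (3.40 ± 0.37) and Ppp1r3b (3.30 ± 2.25) followed in the same unit. In cold WT mice, the level per kb was 79.4 ± 24.3 for Pygl, 66.5 ± 16.0 for Gys1, 52.3 ± 29.9 for Gys2, 44.6 ± 10.7 for Pygb, 43.3 ± 7.34 for Ugp2, 41.2 ± 21.2 for Ppp1r3b, 35.2 ± 8.72 for Gbe1, 33.8 ± 14.0 for Ppp1r3c and 2.04 ± 0.31 for Pygm (SD, n = 3). Most neighbours in either order differed by less than the larger of their SDs. The exceptions were the steps from Ugp2 to Gbe1 and from Gbe1 to Gys2 in TN WT and from Ppp1r3c to Pygm in cold WT. In TN HIF2α AKO mice the level per kb ran from 49.8 for Pygb over 40.9 for Pygl, 31.8 for Gys1, 26.5 for Ugp2, 18.6 for Gbe1, 15 for Ppp1r3c, 11.5 for Pygm and 9.60 for Gys2 to 7.49 for Ppp1r3b. In cold HIF2α AKO mice it ran from 99.8 for Pygl over 69.97 for Gys1, 57.9 for Ppp1r3b, 51.0 for Ugp2, 49.0 for Gys2, 43.9 for Gbe1, 40.7 for Pygb and 31.5 for Ppp1r3c to 10.8 for Pygm (means, n = 3), where the Pygm means rest on the libraries with muscle transcripts.

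Upon cold, both glycogen synthase genes, Gys1 and Gys2, and the targeting subunit gene Ppp1r3b rose in both genotypes, and none of the 9 genes fell by the test. In WT mice, 4 of the 9 genes passed an adjusted p of 0.05 as higher in cold (Gys1, Gys2, Ppp1r3b and Ppp1r3c) and 0 as lower, where 15.6% of all tested genes were called higher and 5.68% lower (edgeR quasi-likelihood test with Benjamini-Hochberg adjustment over 15306 genes). In HIF2α AKO mice, 5 of 9 passed as higher (Gys1, Gys2, Ppp1r3b, Pygl and Ugp2) and 0 as lower, against 15.6% and 11.5% of all genes. The median log2 fold change of the 9 genes was 1.19 in WT and 1.14 in HIF2α AKO mice, beside -0.03 and -0.05 over all genes tested. All 6 cold libraries lay above all 6 TN libraries for 4 of the 9 genes, namely Gys1, Gys2, Gbe1 and Ppp1r3b, and for 16.0% of all genes. The counts moved with single libraries, as did the share of all genes called in either direction (21.3% in WT and 27.0% in HIF2α AKO mice with all libraries). In WT, 2 of 9 genes were called without TN WT replicate 1 or 2 (11.7% and 8.91% of all genes), and 7 when TN HIF2α AKO replicate 1 was left out (21.6%). In HIF2α AKO mice, 0 were called without cold HIF2α AKO replicate 1 (10.4% of all genes) and 1 without TN HIF2α AKO replicate 1 or 3 (11.2% and 15.8%). There, 2 were called without cold HIF2α AKO replicate 2 (18.1%), 3 without cold HIF2α AKO replicate 3, TN WT replicate 1 or cold WT replicate 1 (23.5%, 21.4% and 23.9%), and 2 without both libraries with muscle transcripts (9.80%). In bulk tissue, a change in the share of cells of a type and a change of RNA per cell cannot be told apart.

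**Figure D2:**
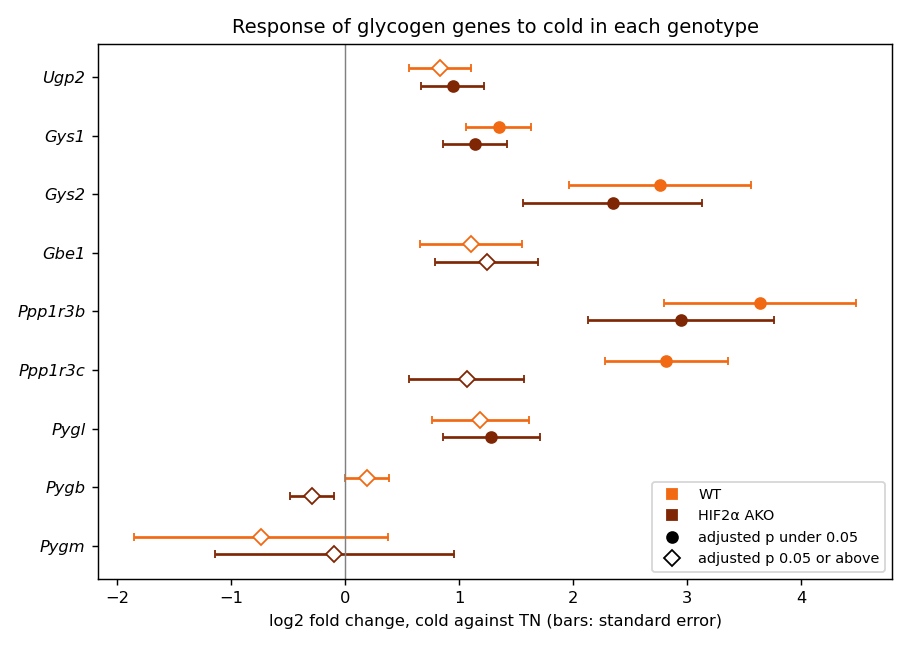
Log2 fold change of cold against TN for the 9 genes in WT and in HIF2α AKO mice (3 mice per group, bars are the standard error of the edgeR fit, filled circles passed an adjusted p of 0.05). Ppp1r3b has the highest value in each genotype (3.64 in WT and 2.95 in HIF2α AKO), and Pygb and Pygm lie near or below 0.

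Ugp2, whose product makes UDP-glucose for the synthases, stood at 74.8, 57.4 and 91.4 CPM in TN WT and at 108, 141 and 151 CPM in cold WT. Libraries labelled HIF2α AKO stood at 52.4, 110.4 and 81.0 CPM at TN and at 197, 151 and 121 CPM in cold. Cold libraries were above TN libraries within each genotype, while the lowest cold library (107.5 CPM, WT) lay under the highest TN library (110.4 CPM, HIF2α AKO). The log2 fold change was 0.83 (SE 0.27, adjusted p = 0.0511 by edgeR) in WT, which did not pass, and 0.95 (SE 0.27, adjusted p = 0.0288 by edgeR) in HIF2α AKO mice. The call in HIF2α AKO mice was lost without TN HIF2α AKO replicate 1 (adjusted p = 0.099 by edgeR), TN HIF2α AKO replicate 3 (0.075), cold HIF2α AKO replicate 1 (0.121) or cold HIF2α AKO replicate 2 (0.0589). In WT, Ugp2 passed without both libraries with muscle transcripts (log2 fold change 0.84, adjusted p = 0.0307 by edgeR). The WT value also passed by DESeq2 (adjusted p = 0.0178) and limma voom (0.0175). By edgeR it passed with the muscle marker level as a covariate (0.0112) and with only the 6 libraries compared (0.0437).

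Gys1 encodes the muscle-type glycogen synthase, which is also the synthase of most other tissues. Its CPM was 138, 80.7 and 157 in TN WT and 309, 247 and 399 in cold WT, and 111, 199.8 and 146 in TN HIF2α AKO and 396, 320 and 289 in cold HIF2α AKO. Every cold library was above every TN library, the nearest being 247 against 199.8 CPM. Gys1 rose by 2.55-fold in WT (log2 fold change 1.35, SE 0.28, adjusted p = 0.00855 by edgeR) and by 2.20-fold in HIF2α AKO mice (1.14, SE 0.28, adjusted p = 0.0153 by edgeR). The WT call held in each of 21 other settings (adjusted p from 6.39e-05 to 0.0378 by the tool of each setting), whereas the HIF2α AKO call was lost without TN HIF2α AKO replicate 1 (0.0663), TN HIF2α AKO replicate 3 (0.0517) or cold HIF2α AKO replicate 1 (0.0667).

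Gys2, the liver-type glycogen synthase gene, was lower and more variable than Gys1 at TN. Its CPM was 25.3, 4.93 and 31.2 in TN WT and 3.90, 34.8 and 37.9 in TN HIF2α AKO, so that 1 library of each genotype (TN WT replicate 2 and TN HIF2α AKO replicate 1) stood well under the others. In cold it was 77.1, 111 and 229 in WT and 169.5, 101.1 and 120.2 in HIF2α AKO, all above the TN libraries. Gys2 rose by 6.78-fold in WT (log2 fold change 2.76, SE 0.80, adjusted p = 0.0326 by edgeR) and by 5.10-fold in HIF2α AKO mice (2.35, SE 0.78, adjusted p = 0.0467 by edgeR). The WT call was lost without TN WT replicate 1 (adjusted p = 0.0764 by edgeR), TN WT replicate 2 (0.0934) or cold WT replicate 3 (0.119). The HIF2α AKO call stood in 3 of 12 fits that left out 1 library. The other 9 fits gave adjusted p-values by edgeR of 0.0648 without TN WT replicate 1, 0.0548 and 0.0586 without cold WT replicates 1 and 2, 0.0998, 0.0625 and 0.0731 without TN HIF2α AKO replicates 1, 2 and 3, and 0.134, 0.0724 and 0.0711 without cold HIF2α AKO replicates 1, 2 and 3. Without both libraries with muscle transcripts, its log2 fold change was 2.40 in HIF2α AKO mice (adjusted p = 0.144 by edgeR) and 2.76 in WT (0.0482).

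Gbe1, the branching enzyme, did not pass the test in either genotype although its groups did not overlap. Its CPM was 90.1, 45.8 and 126.5 in TN WT, 164.5, 158.2 and 242 in cold WT, 42.3, 144 and 112 in TN HIF2α AKO and 322, 208 and 175 in cold HIF2α AKO. The lowest cold value (158.2 CPM) exceeded the highest TN value (144 CPM) by a small margin. The log2 fold change was 1.11 (SE 0.45, adjusted p = 0.0962 by edgeR) in WT and 1.24 (SE 0.45, adjusted p = 0.0607 by edgeR) in HIF2α AKO mice. It passed in WT without TN HIF2α AKO replicate 1 (0.0486), and in HIF2α AKO mice without TN WT replicate 2 (0.0419) or TN HIF2α AKO replicate 2 (0.0398), each by edgeR. Other tools called Gbe1 in both genotypes, with adjusted p-values of 0.0437 in WT and 0.0178 in HIF2α AKO mice by DESeq2 and 0.0462 and 0.0248 by limma voom. With the muscle marker level as a covariate, edgeR gave 0.0382 and 0.0326.

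Ppp1r3b encodes the targeting subunit known from liver, and its cold response was the highest fitted value among the 9 genes. Its CPM was 17.98, 8.02 and 35.6 in TN WT and 112, 286 and 371 in cold WT, and 7.17, 48.8 and 83.7 in TN HIF2α AKO and 518, 195 and 366 in cold HIF2α AKO. Groups at TN and in cold did not overlap, and the spread within each group was wide. Ppp1r3b rose by 12.5-fold in WT (log2 fold change 3.64, SE 0.84, adjusted p = 0.0132 by edgeR) and by 7.72-fold in HIF2α AKO mice (2.95, SE 0.81, adjusted p = 0.0237 by edgeR). The WT call was lost without TN WT replicate 1 (0.0535) or TN WT replicate 2 (0.0559). The HIF2α AKO call was lost without TN HIF2α AKO replicate 2 (0.0505), without cold HIF2α AKO replicate 1 (0.0824) and without both, the libraries with muscle transcripts (2.62, adjusted p = 0.127 by edgeR).

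Ppp1r3c encodes the subunit called protein targeting to glycogen. In WT mice it stood at 13.0, 8.70 and 17.5 CPM at TN and at 56.5, 87.6 and 132 CPM in cold, with no overlap. In HIF2α AKO mice it stood at 18.1, 54.8 and 49.8 CPM at TN and at 124, 36.0 and 97.0 CPM in cold, where the lowest cold library fell among the TN libraries. Ppp1r3c rose by 7.06-fold in WT (log2 fold change 2.82, SE 0.54, adjusted p = 0.00544 by edgeR), a call that held in each of 21 other settings. In HIF2α AKO mice the log2 fold change was 1.07 (SE 0.51, adjusted p = 0.13 by edgeR), and it passed in 0 of 21 other settings. The difference between the genotypes in this response is given with the interaction.

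Among the phosphorylases, Pygl, the liver-type gene, was the most abundant in cold. Its CPM was 263, 129 and 329 in TN WT, 508, 403 and 731 in cold WT, 138, 403 and 306 in TN HIF2α AKO and 919, 603 and 541 in cold HIF2α AKO. Cold and TN libraries were apart within each genotype and met across genotypes, at 402.8 CPM in the lowest cold and 403.1 CPM in the highest TN library. The log2 fold change was 1.19 (SE 0.42, adjusted p = 0.0668 by edgeR) in WT and 1.29 (SE 0.43, adjusted p = 0.0457 by edgeR) in HIF2α AKO mice, so that Pygl rose by the test only in the latter, and the difference between the responses was 0.10 (95% interval -1.21 to 1.40). The HIF2α AKO call was lost in 7 of 12 fits that left out 1 library, with adjusted p-values by edgeR of 0.142 and 0.0946 without TN HIF2α AKO replicates 1 and 3, 0.165, 0.0742 and 0.0531 without cold HIF2α AKO replicates 1, 2 and 3, and 0.0639 and 0.0602 without TN WT replicate 1 and cold WT replicate 1. It was also lost without both libraries with muscle transcripts (0.0987), and in WT Pygl passed without TN WT replicate 3 (0.0475) or TN HIF2α AKO replicate 1 (0.0375). The WT value also passed by DESeq2 (adjusted p = 0.02), by limma voom (0.0398) and by edgeR with the muscle marker level as a covariate (0.0265).

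Pygb, the brain-type phosphorylase gene, ranged from 155 to 286 CPM over the 12 libraries, and its cold and TN libraries overlapped in both genotypes. Its log2 fold change in cold was 0.19 (95% interval -0.24 to 0.62, adjusted p = 0.475 by edgeR) in WT and -0.29 (-0.72 to 0.14, adjusted p = 0.269 by edgeR) in HIF2α AKO mice. Pygm, the phosphorylase of skeletal muscle, stood at 11.3, 11.9 and 9.59 CPM in TN WT and at 7.65, 5.68 and 6.36 CPM in cold WT. In HIF2α AKO libraries, it stood at 95.8 and 90.1 CPM in the pair with muscle transcripts, and at 6.29 to 8.28 CPM in the other 4. Its log2 fold change in cold was -0.74 (SE 1.11, adjusted p = 0.64 by edgeR) in WT and -0.09 (SE 1.05, adjusted p = 0.954 by edgeR) in HIF2α AKO mice. Without both libraries with muscle transcripts, the WT value was -0.73 with an adjusted p of 0.0186 by edgeR, and Pygm was then the 1 gene of the 9 called lower. The WT libraries were the same in both fits, and their muscle markers summed to 41.7 to 116 CPM at TN and 14.5 to 16.5 CPM in cold. With the muscle marker level as a covariate, the WT value was 0.56 (adjusted p = 0.0564 by edgeR). Whether muscle transcripts have a part in the WT value was not tested.

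Within the synthases and phosphorylases, the mix of isozyme transcripts differed between TN and cold. The share of Gys2 in the synthase reads per kb was 20.4% ± 9.10 in TN WT, 20.6% ± 13.2 in TN HIF2α AKO, 42.2% ± 10.2 in cold WT and 40.9% ± 3.98 in cold HIF2α AKO (SD, n = 3). Cold libraries held 31.0 to 50.8% and TN libraries 5.97 to 31.8%, which overlapped between cold WT and TN HIF2α AKO but not within a genotype. The share was 21.1 percentage points higher in cold (two-sided exact permutation test within genotypes over 400 arrangements, p = 0.005, the smallest these allow, adjusted over 4 shares p = 0.00667).

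The share of Pygl in the phosphorylase reads per kb rose from 43.5% ± 9.46 to 62.7% ± 4.30 in WT and from 39.2% ± 8.34 to 65.9% ± 2.12 in HIF2α AKO mice (SD, n = 3). It was 22.9 points higher in cold, and all 6 cold libraries (58.1 to 67.6%) lay above all 6 TN libraries (30.7 to 51.5%) (exact permutation p = 0.005, adjusted p = 0.00667). The share of Pygb fell by 20.0 points, from a mean of 51.9% at TN to 31.9% in cold (exact permutation p = 0.005, adjusted p = 0.00667), although its CPM did not pass the test of cold in either genotype. As shares of 1 family add to 100%, those of Pygl and Pygb are not independent. The share of Pygm was 4.66% in TN WT and 1.68% in cold WT, and it reached 20.2% and 14.0% in the pair with muscle transcripts. Over all 12 libraries its difference was -2.95 points (exact permutation p = 0.405). Without that pair it was -2.31 points (exact permutation adjusted p = 0.0167, the smallest that the 120 arrangements left allow). The share was not adjusted for the muscle markers, whose sum was higher in TN WT than in cold WT.

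**Figure D3:**
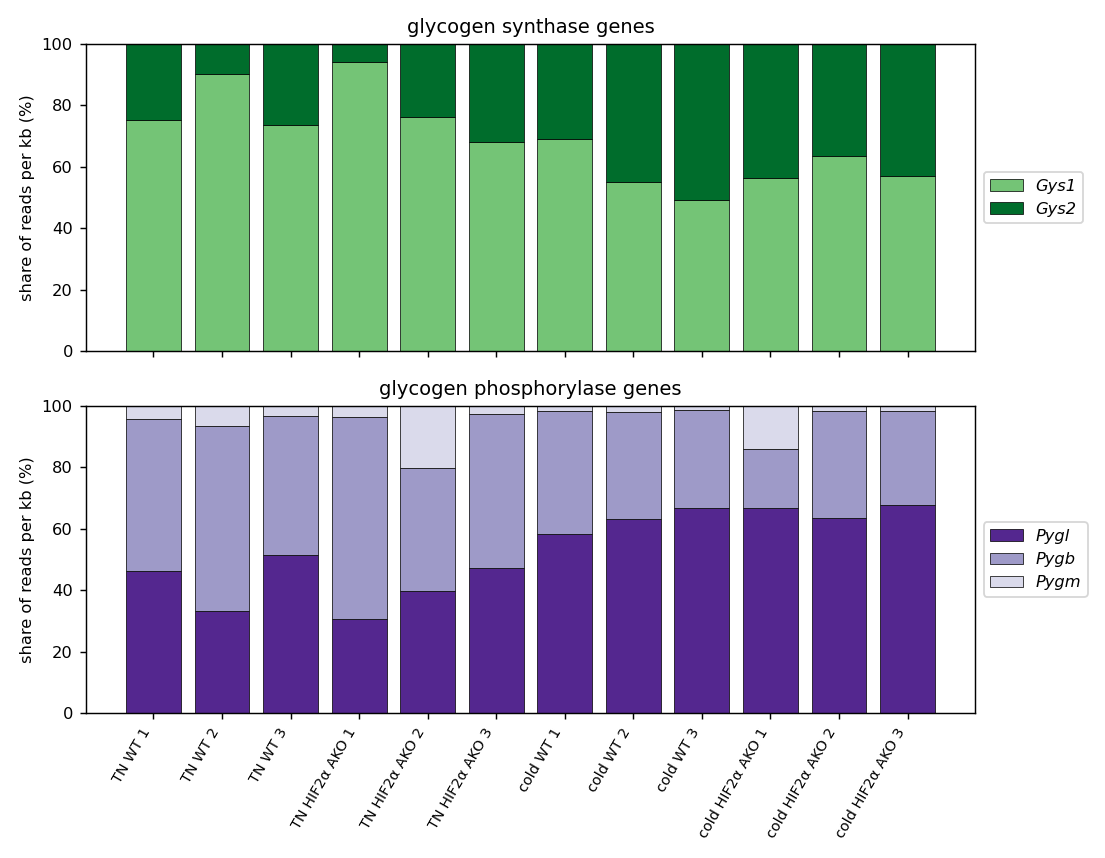
Share (%) of each gene in the reads per kb of exon of the glycogen synthase genes (upper panel) and the glycogen phosphorylase genes (lower panel), as stacked bars for each of the 12 libraries. The Pygl segment is below 52% in every TN library and above 58% in every cold library, and the Pygm segment is at 20.2% and 14.0% in TN HIF2α AKO 2 and cold HIF2α AKO 1.

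Between genotypes, none of the 9 genes passed the test at either temperature. At TN, 0 of 9 were called by edgeR, beside 0.00653% (1 gene) of all tested genes, and 1 of 9 had an unadjusted p under 0.05, beside 446 of 15306. In cold, 0 of 9 were called, again beside 0.00653% of all genes, and 0 of 9 had an unadjusted p under 0.05, beside 451 genes. At either temperature and for the interaction, limma voom also called 0 of 9 and DESeq2 0 of the 8 to which it gave an adjusted p (all but Pygm). The median log2 difference of HIF2α AKO from WT over the 9 genes was 0.32 at TN and 0.24 in cold (0.01 and -0.02 over all genes), and without both libraries with muscle transcripts it was 0.03 at either temperature. Intervals were narrower for some genes than for others. In cold, the 95% interval of the log2 difference was -0.54 to 0.68 for Gys1, -0.36 to 0.83 for Ugp2 and -0.56 to 0.29 for Pygb. It was -1.73 to 1.54 for Gys2 and -1.18 to 2.15 for Ppp1r3b, so that sizeable differences were not detectable at this spread for these 2 genes. The interval of Ugp2 reached about the size of its cold response in WT (0.83), so a difference of that size is not excluded for it either.

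Ppp1r3c was the gene with an unadjusted p under 0.05 at TN. All 3 HIF2α AKO libraries (18.1, 54.8 and 49.8 CPM) lay above all 3 WT libraries (13.0, 8.70 and 17.5 CPM), the nearest by less than 1 CPM. Pygb too was higher at TN in all 3 HIF2α AKO libraries (206 to 286 CPM) than in all 3 WT libraries (164 to 202 CPM). It did not pass (unadjusted p = 0.0991, adjusted p = 0.999 by edgeR). The share of all genes that separated in this way was not counted. An exact test of 3 against 3 mice gives a p of 0.1 at the least, so no result is drawn from either separation. The log2 difference of Ppp1r3c was 1.65 (SE 0.52, 95% interval 0.50 to 2.79), with an unadjusted p of 0.00898 and an adjusted p of 0.999 by edgeR. It ranged from 1.38 to 2.00 over 21 other settings and was 1.38 without both libraries with muscle transcripts. In cold the difference was -0.10 (SE 0.50). The interaction, the cold response of HIF2α AKO less that of WT, was -1.75 for Ppp1r3c (SE 0.72, unadjusted p = 0.0327, adjusted p = 1 by edgeR) and lay between -2.12 and -1.39 in 20 other settings. It did not pass, and neither did that of any other of the 9 genes (0 of 9), beside 0% of all genes, of which 327 had an unadjusted p under 0.05. The other 8 interactions ranged from -0.69 for Ppp1r3b (95% interval -3.06 to 1.68) to 0.64 for Pygm (-2.72 to 4.00).

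**Figure D4:**
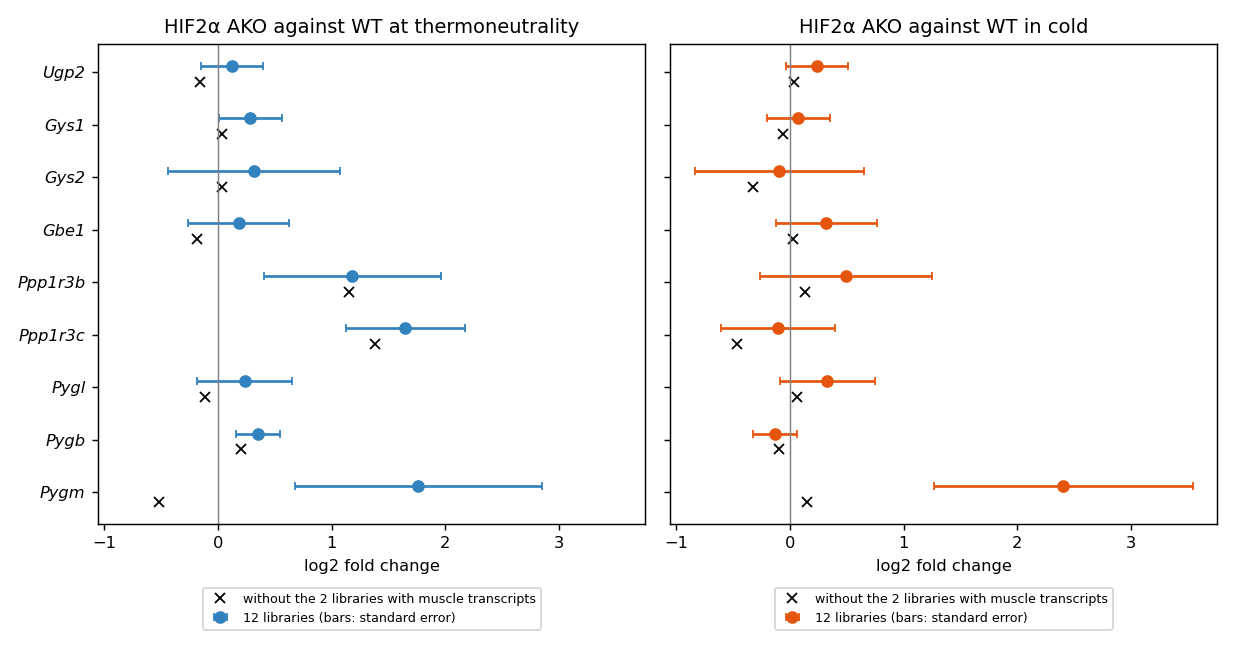
Log2 fold change of HIF2α AKO against WT for the 9 genes at TN (left) and in cold (right), with standard errors from the fit of 12 libraries, and the value without the 2 libraries with muscle transcripts as crosses. For Pygm, 1.76 at TN and 2.40 in cold become -0.52 and 0.15, while Ppp1r3c at TN is 1.65 with and 1.38 without these libraries.

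The fitted genotype difference of Pygm went with muscle transcripts. Its log2 difference of HIF2α AKO from WT was 1.76 (SE 1.09) at TN and 2.40 (SE 1.14) in cold, and -0.52 and 0.15 without the pair of libraries. Across the 12 libraries, the log2 CPM of Pygm had a Pearson's r of 0.977 with the mean log2 CPM of the 12 muscle markers, while the other 8 genes had r between -0.10 and 0.21 (a description over 12 libraries, of which 2 carry the muscle transcripts). Gys1, the other synthase or phosphorylase gene known from muscle, was at 199.8 and 396 CPM in these libraries, the highest TN value and the next to highest cold value. Ugp2, Gbe1 and Pygl were each highest of their temperature in these libraries, and whether muscle transcripts have a part in that was not tested.

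**Figure D5:**
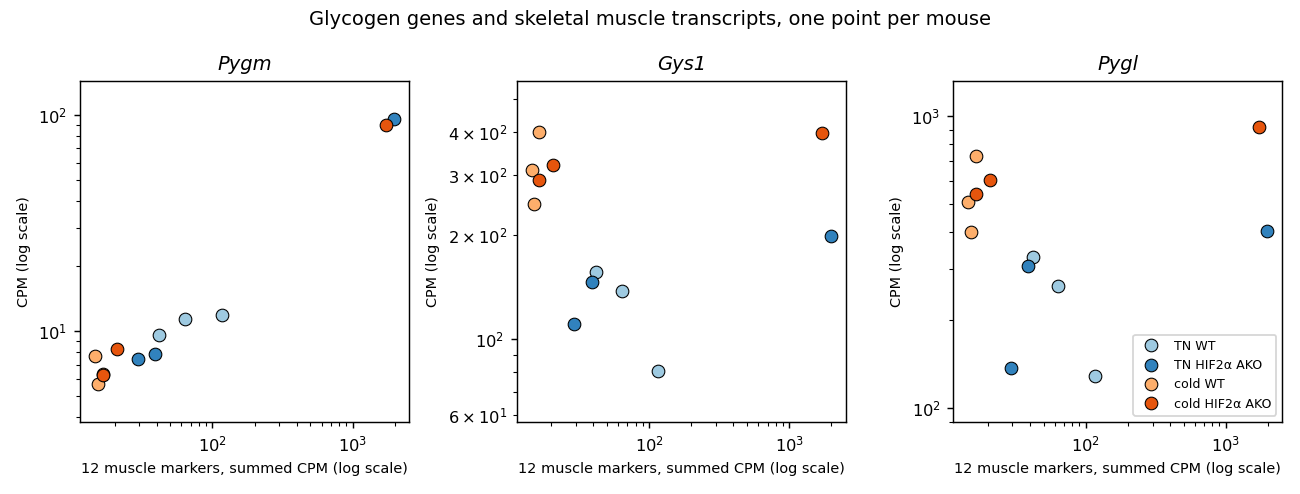
CPM of Pygm, Gys1 and Pygl against the summed CPM of 12 skeletal muscle markers in each of the 12 libraries (both axes logarithmic, 1 point per mouse, colours are the 4 groups). Pygm follows the marker sum up to 95.8 and 90.1 CPM in the libraries at 1983 and 1723 CPM of markers. Gys1 separates by temperature over all libraries, and Pygl does so only within each genotype.

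Markers of adipocytes moved with the same samples. The summed CPM of 6 of 6 white adipocyte markers was 4195 to 10510 in TN WT, 6246 to 11500 in TN HIF2α AKO, 14100 to 27760 in cold WT and 17320 to 21220 in cold HIF2α AKO, with none of the markers at 0. Of the 6, Fabp4 and Cidec were higher in all cold than in all TN libraries, and Adipoq (899 to 2122 CPM at TN and 1068 to 2467 CPM in cold), Plin1, Lep and Retn overlapped between temperatures. The libraries with the lowest Gys2, Ppp1r3b, Gbe1, Ugp2 and Pygl, TN WT replicate 2 and TN HIF2α AKO replicate 1, were also the lowest of their groups in this sum. Thermogenic markers (6 of 6) summed to 12.1 to 54.2 CPM in TN WT and 30.5 to 60.8 CPM in TN HIF2α AKO. In cold they summed to 3274 to 4797 CPM in WT and 5527 to 8459 CPM in HIF2α AKO, highest in replicate 1, which held muscle transcripts. Each of the 6 was higher in all cold than in all TN libraries, as were 16.0% of all genes. Between genotypes in cold, Ucp1, Cidea and Cox7a1 lay apart, while Elovl3, Cox8b and Dio2 overlapped. The difference of these sums between genotypes was not tested. The part of adipocyte content in the cold response of the 9 genes was not tested. Leaving out TN WT replicate 2 and TN HIF2α AKO replicate 1 was an alternative chosen after the values were seen. Then 4 of 9 genes were called higher in WT and 3 in HIF2α AKO mice by edgeR, beside 10.2% and 13.1% of all genes in either direction. The median log2 fold change of the 9 genes was 0.87 and 0.88. Markers of liver (5 of 5), where Gys2, Pygl and Ppp1r3b are prominent, summed to 3.67 to 16.6 CPM at TN and 16.4 to 57.1 CPM in cold. Nearly all of this was Alb, and the other 4 (Apoa1, Ttr, G6pc and Apob) were at or under 0.442 CPM in every library. Of the other cell types, marker sums at TN and in cold were 462.6 to 929.2 and 542.3 to 953.6 CPM for macrophages (5 of 6 in the table), 73.5 to 202 and 47.8 to 99.9 CPM for neutrophils (4 of 5), 700 to 873.7 and 864.8 to 977.4 CPM for endothelium (5 of 5). They were 678.2 to 1100 and 353.1 to 613.1 CPM for lymphocytes (5 of 5), and 5.81 to 200 and 2.95 to 9.36 CPM for epithelium (6 of 6). The part of these cells was not tested either. The 200 CPM belonged to TN WT replicate 3 alone, with Krt8 at 51.96 and Krt18 at 51.68 CPM, and the next highest library was at 10.3 CPM. Without this library the WT values of Pygl and Ugp2 passed (adjusted p = 0.0475 and 0.0393 by edgeR).

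Across the 12 libraries, Ugp2, Gys1, Gys2, Gbe1, Ppp1r3b, Ppp1r3c and Pygl varied together, with Pearson's r of log2 CPM between 0.83 and 0.99 for each pair, whereas Pygb and Pygm had r of at most 0.28 with any other of the 9. These are descriptions of 12 libraries that share the difference between TN and cold. The genes of the whole table with the most similar pattern were Uck1 (r = 0.997) and C030006K11Rik (0.995) for Gys1, Fam69b (0.994) and Thrsp (0.988) for Gys2, and Fez2 for both Gbe1 (0.995) and Pygl (0.996), followed by Pygl for Gbe1 (0.993) and Ppip5k1 for Pygl (0.993). For Ppp1r3b they were Hk2 and Gorasp2 (both 0.986), for Ugp2 Hspb6 (0.985) and Qk (0.984), and for Ppp1r3c Rhob (0.957) and Tom1 (0.947). Pygb was nearest to Nrip1 (0.931) and Mospd2 (0.914), and Pygm to the fast-muscle troponin genes Tnni2 (0.988) and Tnnt3 (0.986).

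Further genes of the pathway, 22 that prime glycogen, degrade it in lysosomes, or regulate synthase and phosphorylase, were measured alongside. Of the 21 that passed the filter, 5 were called higher and 0 lower upon cold in WT, and 4 higher and 0 lower in HIF2α AKO mice, beside 15.6% of all genes called higher in each genotype. These counts were near the background. The median of their log2 fold changes was 0.29 and 0.28. None of the 21 were called by edgeR between genotypes or for the interaction, and 1 had an unadjusted p under 0.05, in cold. Those that rose in both genotypes were Gyg (glycogenin, which primes the chain), by 0.80 in WT (adjusted p = 0.0118 by edgeR) and 0.89 in HIF2α AKO (0.00629), and Gsk3a (a kinase of glycogen synthase), by 0.55 (0.00207) and 0.70 (0.000406), on the log2 scale. Ppp1r3d (a targeting subunit, 1.47, adjusted p = 0.0369), Pgm2 (a phosphoglucomutase, 1.08, 0.0398) and Ppp1ca (a catalytic subunit of protein phosphatase 1, 0.32, 0.0461) passed in WT by edgeR.

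Ppp1cb (another catalytic subunit, log2 fold change 0.82, adjusted p = 0.00765 by edgeR) and Ppp1r3g passed in HIF2α AKO mice. Ppp1r3g, a targeting subunit gene, had 1, 0 and 0 counts in TN HIF2α AKO and 12, 27 and 4 in cold HIF2α AKO, so its call rests on very few reads, and it was lost without both libraries with muscle transcripts (adjusted p = 0.0778 by edgeR). Without these libraries, Ppp1r3d (0.0548) and Ppp1ca (0.0551) were lost in WT too. Then 3 of the pathway genes were called in each genotype. Of all genes, 19.5% were then called in WT and 9.80% in HIF2α AKO mice, in either direction. Ppp1r3a, the targeting subunit known from muscle, was under the filter, with 0 to 12 counts in 10 libraries and 128 and 67 counts in the pair with muscle transcripts.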

How the data were processed

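The authors trimmed the reads with Trim Galore 0.4.4, aligned them to GRCm38 with STAR 2.6.1d and deposited raw read counts per gene made with HTSeq 0.13.5, without normalization, and the submitters' processing notes also name DESeq2 1.30.0. The annotation, strand setting and read length are not given in the sources used here. Each library is 1 mouse, and its group is the one its label gives. The table lists 23420 genes and 5 tallies of reads not assigned to a gene, which made up 21.9 to 27.04% of the listed reads and were left out.

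The count analysis used edgeR 4.0.16 under R 4.3.3, with DESeq2 1.42.0 and limma 3.58.1 as alternatives. The filter was filterByExpr (minimum count 10, minimum total 15). All 12 libraries entered 1 quasi-likelihood fit of the 4 groups with TMM factors, and thus share 1 estimate of the spread (common biological coefficient of variation 0.202). Benjamini-Hochberg adjustment ran over the 15306 tested genes, with a limit of 0.05. Standard errors and 95% intervals were derived from the quasi-likelihood F statistics, and log2 CPM used a prior count of 2. CPM per kb was CPM divided by the union of GENCODE M21 exons. Shares within a family were tested by exact permutation of temperature within genotypes. All comparisons of cold with TN within a genotype and of the genotypes within a temperature come from the same fit and share groups. The fit was tested on simulated data.

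The members, the further pathway genes and the marker lists (skeletal muscle, white and thermogenic adipocytes, macrophages, neutrophils, endothelium, epithelium, lymphocytes and liver) were chosen with earlier results of these data known. All members are named, pathway genes are named where an adjusted p was under 0.05 in a comparison or where they were under the filter, and for each member the 2 genes with the highest r are named. 1 gene of the pathway list is not reported here and is left out of its counts. Replicate numbers were not taken as pairs. Of 18 same-numbered pairs, 5 had deviations from the group means that correlated over 0.1 (range -0.426 to 0.392). Pairs with different numbers were not compared, so these values cannot decide whether the numbers mark pairs. Alternatives were RLE size factors, no filter on low counts, DESeq2, limma voom with sample quality weights, an unadjusted p, a muscle covariate, the replicate block, only the 6 libraries compared, each library left out in turn, and pairs of libraries left out.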

Additional observations from a re-analysis of the deposited data

How the results depend on the processing

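For cold against TN, 4 of the 9 genes were called in WT, beside 21.3% of all genes. The count was 7 with an unadjusted p, beside 5960 of 15306 genes. It was also 7 with DESeq2 (which gave Pygm no adjusted p), limma voom and the muscle covariate, beside 30.7%, 30.6% and 30.5%. With a library left out it was 2 to 7, beside 8.91% to 24.1%. In HIF2α AKO mice the count was 5, beside 27.0% of all genes. It was 6 with an unadjusted p, beside 6541 of 15306 genes. DESeq2, limma voom and the muscle covariate gave 6 too, beside 34.9%, 40.1% and 32.4%. It was 2 (9.80%) without both libraries with muscle transcripts, and 3 (13.1%) without TN WT replicate 2 and TN HIF2α AKO replicate 1. With a library left out it was 0 to 6, beside 10.4% to 31.3%. With the replicate number as a block it was 3, beside 21.6% of all genes, and the block changed no other count of these genes. With an unadjusted p, 1 gene passed at TN between genotypes and 1 for the interaction, beside 446 and 327 of 15306 genes. Over all genes, calls in HIF2α AKO mice went from 4138 to 1514 without both libraries with muscle transcripts, and in WT from 3259 to 1752 with only the 6 libraries compared and to 1381 to 4700 over all settings. At TN between genotypes, 1 gene was called by edgeR, 9 by DESeq2 and 2 by limma voom, and in cold 1, 7 and 2. The difference in the share of Pygm was -2.31 points without both libraries with muscle transcripts (exact permutation adjusted p = 0.0167, the smallest that 120 arrangements allow). With a library left out it was -4.99 to -0.26 points. Of the fold changes that passed in a comparison, 0 changed sign. Reversals, all in log2 values that had not passed, were as follows. With the muscle covariate, Pygm was 0.56 in WT and 0.28 in HIF2α AKO for cold, Gbe1 -0.027 and Ugp2 -0.015 between genotypes at TN, Gys1 -0.12, Gbe1 -0.026, Pygm -0.12 and Ugp2 -0.022 in cold, and Pygl -0.029, Pygm -0.28 and Ugp2 -0.0068 for the interaction. Without both libraries with muscle transcripts, Gbe1 was -0.18, Pygl -0.11, Pygm -0.52 and Ugp2 -0.16 at TN and Gys1 -0.065 in cold between genotypes. Limma voom gave Gys2 0.23 and Pygb 0.0047 and the block gave Gys2 0.086 in cold. With a library left out, ranges that crossed 0 were, for cold in HIF2α AKO mice, Pygm -2.35 to 2.19, and between genotypes at TN, Gys2 -0.15 to 0.82, Gbe1 -0.18 to 0.55, Pygl -0.11 to 0.56, Pygm -0.52 to 2.25 (2.30 without TN WT replicate 2 and TN HIF2α AKO replicate 1 together) and Ugp2 -0.16 to 0.36. In cold they were Gys1 -0.065 to 0.27, Gys2 -0.38 to 0.47 and Ppp1r3c -0.47 to 0.26, and for the interaction Gys1 -0.41 to 0.042, Gys2 -0.92 to 0.15, Gbe1 -0.23 to 0.50, Ppp1r3b -1.35 to 0.037, Pygl -0.23 to 0.44, Pygm -1.61 to 2.93 and Ugp2 -0.13 to 0.39. The cause of these changes was not tested. Each of the 9 genes had at least 100 counts in every library, and the 3 mice per group limit the precision.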
